A study of Homo sapiens with 2 samples.

Results

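Microtubule-associated and plus-end proteins were examined as a list of 10 genes chosen by name for their role, MAP1A, MAP1B, MAP1S, MAP2, MAP4, MAP7, MAPT, STMN1, MAPRE1 and MAPRE3, which are 10 of the 29972 human genes in the deposited table. RNA came from 2 subcutaneous tumours of NCI-N87, an established human gastric carcinoma line that carries an ERBB2 (HER2) amplification. The hosts were nude mice, which lack T cells but keep other host cells such as stroma and vessels. The T-DM1-refractory tumour was exposed to T-DM1, dosed per the labels every 3 weeks for 18 weeks, and the other was left untreated; whether either library pools several mice is not stated. T-DM1 is trastuzumab emtansine, an antibody against HER2 that carries the microtubule poison DM1. There was 1 library in each group, so no test between the groups was possible, and the refractory state, the drug and the difference between any 2 tumours of the line cannot be told apart.

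Microtubules are polymers of tubulin that grow and shrink at their plus ends, and maytansinoids such as DM1 bind tubulin and suppress this turnover. Structural microtubule-associated proteins (MAPs) bind along the lattice and stabilise it, stathmin holds tubulin dimers out of the polymer, and end-binding proteins ride the growing tip and recruit other factors to it. MAP2, MAP1A, MAP1B and tau are best known from neurons, whereas MAP4, MAP7, MAP1S, STMN1 and MAPRE1 are widely expressed, in epithelia too.

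The refractory library held 59902704 expected counts and the untreated library 75722117. Levels are given as CPM, a gene's counts relative to its library's total, with totals corrected by TMM (trimmed mean of M values), and, for comparing genes with each other, as the deposited FPKM, which also divides by gene length. A change is log2 of CPM plus 1 in the refractory tumour minus the same in the untreated tumour, and a gene was described if at least 1 library reached 1 CPM. Intervals are exact 95% intervals of counts and cover counting error only. Of 8 epithelial markers of the line 7 were described, 4 with a change above 0 and 3 below. They ran from KRT8, a keratin at 1827 CPM in the refractory and 3204 CPM in the untreated tumour (ratio 0.570), to CEACAM5, an adhesion molecule at 189 and 89.7 CPM in the same order (ratio 2.11), the only one past 2-fold. The gastric claudin CLDN18 was close to 0, at 0.236 CPM in the refractory and 0.0523 CPM in the untreated tumour.

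The 10 genes did not move together. Of the 9 that were described, 1 was at least 2-fold higher in the refractory tumour (STMN1), where 9.8% of all 14167 described genes were, and 3 were at least 2-fold lower (MAP1B, MAP2 and MAP1S), where 11% of all described genes were. With a 1.5-fold limit 2 were higher, against 19.4% of all described genes, and 3 lower, against 18.9%, and with a 4-fold limit 0 were higher, against 2.54%, and 1 lower, against 3.56%. The other 5 described genes lay between, and MAPT was under 1 CPM in both tumours. The median log2 change of the 9 was -0.11, against 0.03 over all described genes. Summed CPM of the 10 genes was 947 in the refractory and 1004 in the untreated tumour, a ratio of 0.943 (95% interval 0.933 to 0.954). The summed CPM was thus nearly kept while its parts differed by up to 43.0-fold. The total was not kept per length: summed FPKM of the 10 genes was 454 in the refractory and 320 in the untreated tumour.

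**Figure D1:**
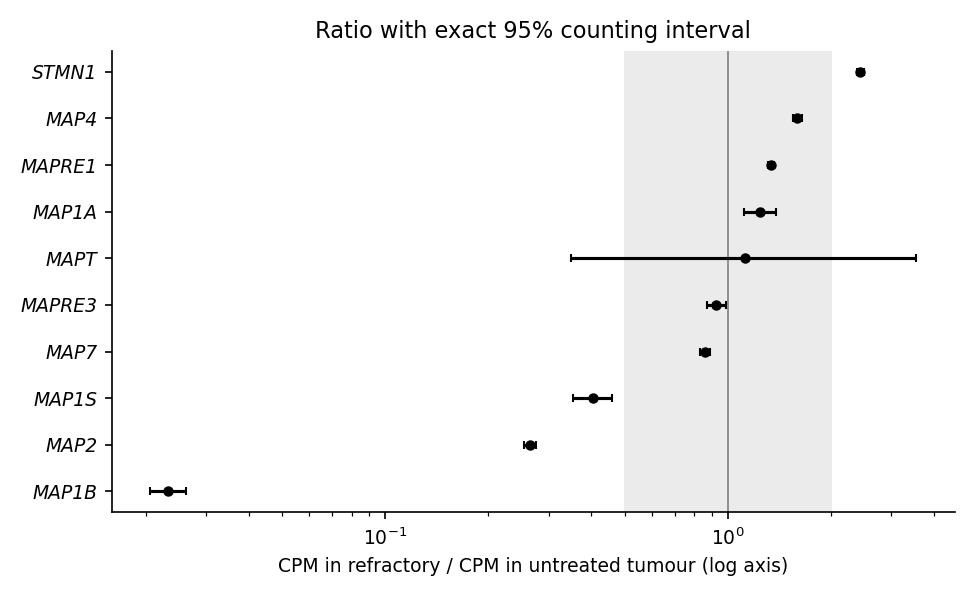
Ratio of CPM in the refractory tumour over the untreated tumour for each of the 10 genes, on a log axis. Points are the ratios of 1 library to 1 library, bars the exact 95% counting intervals, and the shaded band runs from a ratio of 0.5 to 2: STMN1 lies above the band, MAP1S, MAP2 and MAP1B below it, and the wide interval of MAPT comes from 7 and 8 counts.

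MAP1B, a large MAP of growing axons that is cut into a heavy and a light chain (chromosome 5, coding region 72107532 to 72205239, GRCh38), differed most. It had 283 counts, or 4.77 CPM (95% interval 4.23 to 5.36), in the refractory tumour and 15697 counts, or 205 CPM (95% interval 202 to 209), in the untreated tumour. Its level was 43.0-fold lower in the refractory tumour (95% interval 38.3 to 48.6, log2 change -5.16), and 0.247% of described genes had a more negative change. Among 3696 described genes within 2-fold of its mean CPM, 0.541% changed by as much in either direction. In the authors' deposited table MAP1B had a log2 fold change of -5.43. The p-value deposited beside it sets 1 library against 1, where the spread between tumours was not measured. It is therefore not read as a test here.

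MAP2, a dendritic MAP with tubulin-binding repeats like those of tau (chromosome 2, coding region 209653171 to 209730397), was next. It stood at 52.96 CPM (95% interval 51.1 to 54.8) in the refractory and 199.9 CPM (95% interval 197 to 203) in the untreated tumour, from 3142 and 15280 counts. Its level was 3.77-fold lower in the refractory tumour (95% interval 3.63 to 3.92, log2 change -1.90), and 3.56% of 3261 genes of like abundance changed as much. The refractory tumour kept a readable level of MAP2, with more counts than MAP1B.

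MAP1S, a short, widely expressed relative of MAP1A and MAP1B (chromosome 19, coding region 17719503 to 17734428), stood at 5.11 CPM in the refractory and 12.6 CPM in the untreated tumour, from 303 and 965 counts. It was 2.47-fold lower in the refractory tumour (95% interval 2.17 to 2.82, log2 change -1.16). This is a common size of change, since 21.6% of 3172 genes of like abundance changed as much, and the call depends on the constant added before taking logs. The log2 change was -0.80 with 5 CPM added, and -0.96 with 1 added to the deposited FPKM, which are small, at 1.69 in the refractory and 4.25 in the untreated tumour.

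STMN1, stathmin, the tubulin-sequestering protein that is switched off by mitotic phosphorylation (chromosome 1, coding region 25885723 to 25904676), was the gene past 2-fold in the other direction. It stood at 313 CPM (95% interval 308 to 317) in the refractory and 128 CPM (95% interval 125 to 131) in the untreated tumour, from 18544 and 9785 counts. The ratio was 2.44 (95% interval 2.38 to 2.503, log2 change 1.28), and 7.26% of 2012 genes of like abundance changed as much in either direction. STMN1 is known to be abundant in dividing cells, and of 9 proliferation genes listed beside it 7 had a change above 0 and 2 below, with a median log2 change of 0.29. Their summed level was 2780 CPM in the refractory and 2475 CPM in the untreated tumour. TYMS, thymidylate synthase, had the highest change, at 116 CPM in the refractory and 57.6 CPM in the untreated tumour. Its plain ratio was 2.02, and with 1 CPM added it lay just inside the 2-fold limit, as did the other 8. BUB1, a spindle checkpoint kinase, had the lowest, at 84.8 CPM in the refractory and 105 CPM in the untreated tumour. The part of cell division in the STMN1 difference was not tested.

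The remaining structural MAPs differed less. MAP4, the main MAP of non-neuronal cells (chromosome 3), stood at 162 CPM in the refractory and 102 CPM in the untreated tumour, a ratio of 1.60 (95% interval 1.55 to 1.64). MAP7, also called ensconsin, which brings kinesin-1 to microtubules (chromosome 6), stood at 97.7 CPM in the refractory and 114 CPM in the untreated tumour, a ratio of 0.858 (95% interval 0.829 to 0.887). MAP1A, the MAP1 form of mature neurons (chromosome 15), stood at 11.2 CPM in the refractory and 9.01 CPM in the untreated tumour, a ratio of 1.24 (95% interval 1.11 to 1.38). These 3 differences are larger than counting error, but 22.8%, 63.4% and 68.1% of genes of like abundance changed as much. MAPT, which encodes tau (chromosome 17), had 7 counts in the refractory and 8 in the untreated tumour, and its ratio of 1.13 has an interval of 0.348 to 3.56, so no difference under about that size was detectable at this depth.

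Neither end-binding gene of the set passed the 2-fold limit. MAPRE1, or EB1, the general tip-tracking protein (chromosome 20), stood at 273 CPM in the refractory and 204 CPM in the untreated tumour, a ratio of 1.34 (95% interval 1.31 to 1.37). MAPRE3, or EB3, a form enriched in neurons and muscle (chromosome 2), stood at 27.2 CPM in the refractory and 29.3 CPM in the untreated tumour, a ratio of 0.926 (95% interval 0.868 to 0.987). Changes as large were seen in 37.3% of genes with abundance like that of MAPRE1 and in 85.1% for MAPRE3. MAPRE2, the remaining end-binding gene, which is outside the 10, stood at 47.3 CPM in the refractory and 22.3 CPM in the untreated tumour, a ratio of 2.12 (95% interval 1.996 to 2.25).

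**Figure D2:**
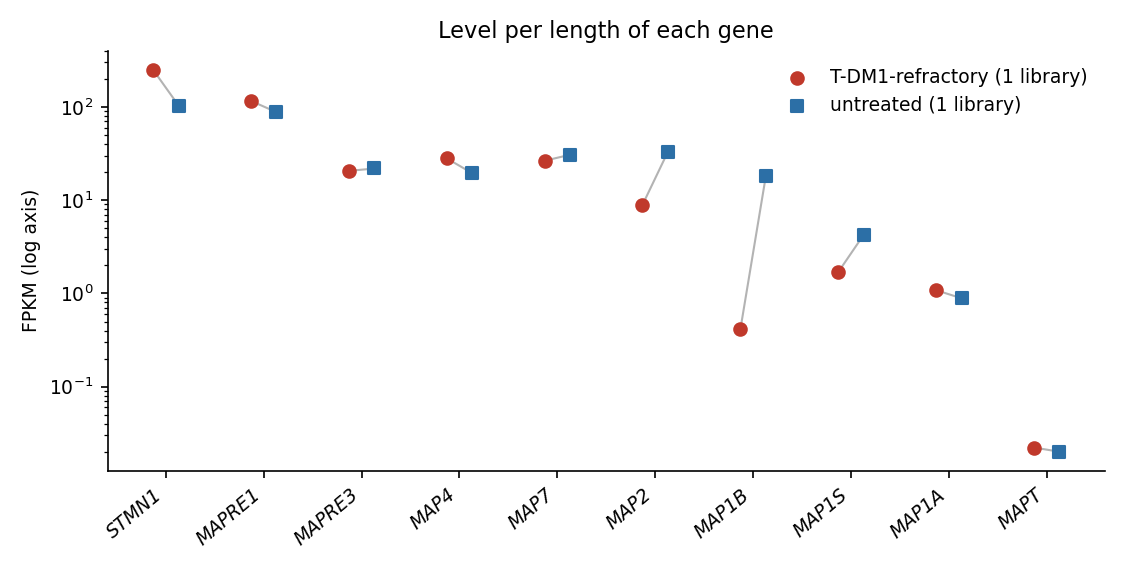
FPKM (log axis) of each of the 10 genes in the refractory tumour (red circles) and in the untreated tumour (blue squares), 1 library each, joined by a line per gene. STMN1 and MAPRE1 lead in both tumours, while MAP1B stands at 0.412 FPKM in the refractory and 18.1 FPKM in the untreated tumour.

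Per length, the order of levels differed below STMN1 and MAPRE1. STMN1 was highest in both tumours, at 250.2 FPKM in the refractory and 104 FPKM in the untreated one, followed by MAPRE1 at 116 and 88.0 FPKM in the same order. In the refractory tumour MAP4 (28.1 FPKM), MAP7 (26.5 FPKM) and MAPRE3 (20.6 FPKM) came next, ahead of MAP2 (8.91 FPKM). There MAP1B (0.412 FPKM) came behind MAP1S (1.69 FPKM) and MAP1A (1.08 FPKM). In the untreated tumour MAP2 (33.1 FPKM) came next, followed by MAP7 (30.7 FPKM), MAPRE3 (21.9 FPKM), MAP4 (19.5 FPKM) and MAP1B (18.1 FPKM). MAP1S (4.25 FPKM) and MAP1A (0.888 FPKM) came behind MAP1B there. With 1 library each, the spread needed to separate neighbours in these orders was not measured.

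As shares of the summed FPKM of the 10 genes, STMN1 made up 55.2% in the refractory and 32.4% in the untreated tumour. The 7 structural MAPs together made up 14.7% in the refractory and 33.3% in the untreated tumour, at 66.7 and 107 FPKM. The 2 end-binding genes made up 30.1% in the refractory and 34.3% in the untreated tumour, at 137 and 110 FPKM. Within the MAP1 family, MAP1B took 12.9% of the summed FPKM in the refractory and 77.9% in the untreated tumour, so that MAP1S, with 53.1% in the refractory tumour against 18.3% in the untreated one, was the leading form although its own level was lower. Within the family of MAP2, MAP4 and tau, MAP4 took 75.9% in the refractory and 37.1% in the untreated tumour, and the ratio of MAP4 to MAP2 was 3.15 in the refractory and 0.590 in the untreated tumour. STMN1 was 99.6% of the summed stathmin FPKM in the refractory and 96.7% in the untreated tumour.

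**Figure D3:**
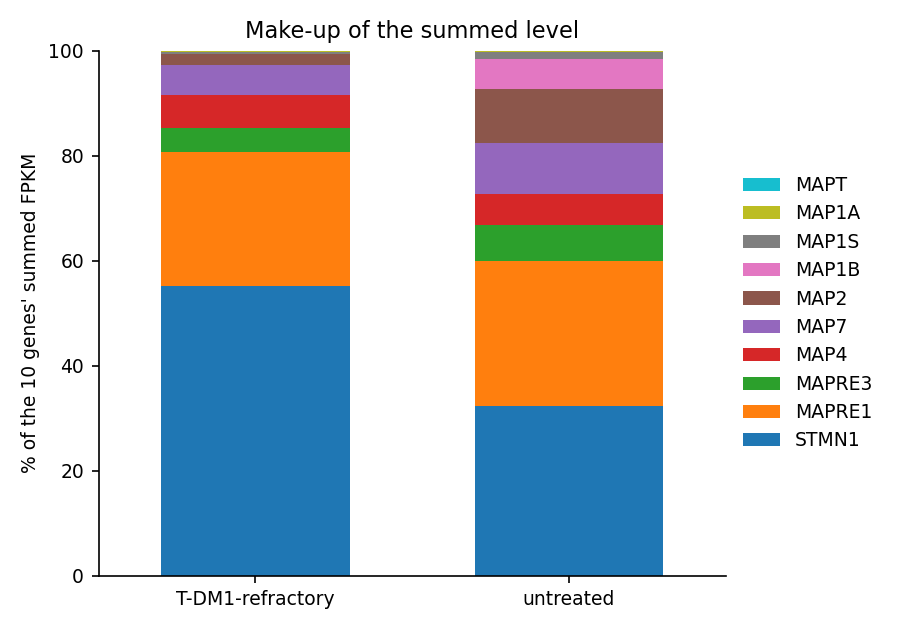
Share of each gene in the summed FPKM of the 10 genes, in percent, in the refractory tumour (left) and the untreated tumour (right), 1 library each. STMN1 fills 55.2% of the refractory and 32.4% of the untreated bar, and the MAP1B block, 5.65% of the untreated bar, is 0.0908% of the refractory one.

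The ratio of counts to FPKM gives the gene length that the authors' values imply in each library, which moves with the mix of transcripts when lengths are weighted by isoform. The sources used here do not state the weighting. For MAP4 it was 5728 bases in the refractory and 5267 bases in the untreated tumour, and 4.03% of 13007 genes with over 50 reads in both libraries lay as far from the median gene. For MAP2 it was 5884 bases in the refractory and 6098 bases in the untreated tumour (14.9% of genes as far), and for MAP1B 11474 and 11462 bases. The MAP1B difference was therefore of the same size in FPKM as in counts.

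The genes differed in how the genes next to them on the chromosome behaved. Each described gene was placed beside the 5 nearest described genes on each side, in the order of the RefSeq table of GRCh38.p14. All 10 neighbours of STMN1 were higher in the refractory tumour, 6 of them at least 2-fold, where 9.8% of all described genes were. Their median log2 change was 1.05, against 1.28 for STMN1 itself. They ran from AUNIP, at 9.61 CPM in the refractory and 7.72 CPM in the untreated tumour, to PAFAH2, a phospholipase, at 67.15 and 14.7 CPM in the same order. All 10 neighbours of MAP1S were lower, 4 of them at least 2-fold, where 11% of all described genes were. Their median was -0.85, against -1.16 for MAP1S. With the neighbours' median subtracted, STMN1 stood at 0.23 and MAP1S at -0.31, inside the 2-fold limits.

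MAP1B and MAP2 differed from their surroundings. None of the 10 neighbours of MAP1B passed 2-fold, their median log2 change was 0.00 and their range ran from -0.80 to 0.51, all far from -5.16. The neighbours on either side, MCCC2 at 247 CPM in the refractory and 195 CPM in the untreated tumour and MRPS27 at 92.2 and 104 CPM in the same order, changed little. The neighbours of MAP2 had a median of -0.40 and ran from -1.22 to 1.53, so MAP2, at -1.90, was below all 10. MAP4, at 0.67, was above all 10 of its neighbours, which ran from -0.36 to 0.45. Copy number was not measured, and its part in these differences was not tested.

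**Figure D4:**
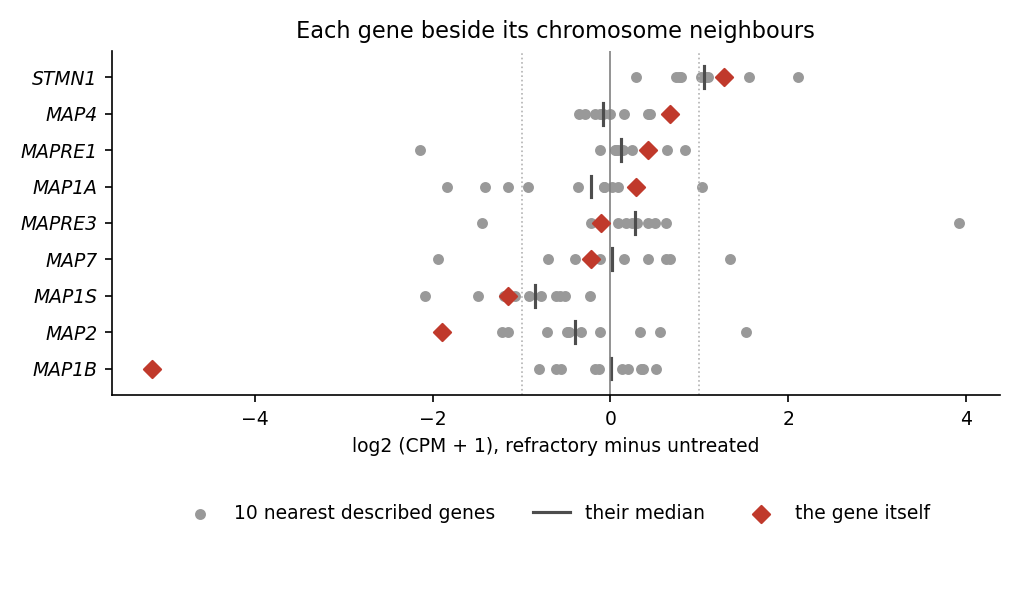
Log2 change (CPM plus 1, refractory minus untreated) of the 9 described genes (red diamonds), of the 10 nearest described genes of each (grey points) and of their median (grey bars), with dotted lines at 2-fold. STMN1 and MAP1S lie within the range of neighbours that all changed the same way, and MAP1B lies far to the left of neighbours between -0.80 and 0.51.

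The start regions of the 4 genes past 2-fold are shown because those genes carry the differences above. They are from RefSeq (GRCh38.p14), 250 bases before to 50 after the start site, for 9 of the 10 genes matched. Where RefSeq gives several, the start with most GENCODE 29 transcripts within 100 bases was taken, then the one nearest to the coding region. RefSeq gives 2 starts for MAP1B, 3 for MAP2, 1 for MAP1S and 3 for STMN1. The starts taken for MAP1B and MAP1S had 0 GENCODE 29 transcripts within 100 bases, so for MAP1B nearness to the coding region decided. They lie at chr5:72107225-72107524, plus strand, chr2:209579082-209579381, plus strand, chr19:17719230-17719529, plus strand and chr1:25906370-25906669, minus strand. Capitals mark, on either strand, the TATA box (TATAAA), the box named for its letters CCAAT, the E-box (CACGTG) and the GC box (GGGCGG). In the 4 regions printed, none of these matches overlaps another.
MAP1B: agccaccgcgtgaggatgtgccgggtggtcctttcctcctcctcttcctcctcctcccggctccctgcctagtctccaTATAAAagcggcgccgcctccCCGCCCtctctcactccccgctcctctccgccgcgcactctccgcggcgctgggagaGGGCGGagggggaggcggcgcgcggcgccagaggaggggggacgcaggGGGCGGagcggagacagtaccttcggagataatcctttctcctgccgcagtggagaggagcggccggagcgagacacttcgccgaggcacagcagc
MAP2: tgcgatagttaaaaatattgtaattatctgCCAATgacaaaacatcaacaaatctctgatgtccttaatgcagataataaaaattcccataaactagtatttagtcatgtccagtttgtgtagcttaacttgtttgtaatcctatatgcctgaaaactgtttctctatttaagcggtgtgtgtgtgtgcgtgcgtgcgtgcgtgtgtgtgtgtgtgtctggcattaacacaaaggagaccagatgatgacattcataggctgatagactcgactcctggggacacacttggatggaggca
MAP1S: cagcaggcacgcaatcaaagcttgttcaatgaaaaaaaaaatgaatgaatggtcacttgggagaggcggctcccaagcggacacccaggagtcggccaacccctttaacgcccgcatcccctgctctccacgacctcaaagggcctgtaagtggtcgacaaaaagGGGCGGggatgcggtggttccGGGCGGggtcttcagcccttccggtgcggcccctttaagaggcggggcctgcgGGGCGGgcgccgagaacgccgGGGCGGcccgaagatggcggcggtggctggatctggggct
STMN1: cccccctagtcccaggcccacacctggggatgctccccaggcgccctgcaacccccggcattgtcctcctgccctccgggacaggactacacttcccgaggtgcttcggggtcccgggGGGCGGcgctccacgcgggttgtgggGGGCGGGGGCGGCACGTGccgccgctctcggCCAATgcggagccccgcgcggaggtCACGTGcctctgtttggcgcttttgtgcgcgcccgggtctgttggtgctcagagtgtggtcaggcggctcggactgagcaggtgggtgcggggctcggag

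These start regions differ in make-up. The MAP1B region is 70.0% G and C and holds a TATAAA that begins 172 bases before the RefSeq start, a motif in 11.5% of all 35116 such regions, and 3 GC boxes, where 44.95% of all regions hold at least 1. The MAP2 region is 40% G and C and holds 1 CCAAT, a motif in 34.6% of all regions, and no GC box. The MAP1S region is 63.7% G and C with 4 GC boxes. The STMN1 region is 72.7% G and C and holds 2 CACGTG, beginning 94 and 50 bases before the start, where 7.26% of all regions hold at least 1, with 1 CCAAT between them and 3 GC boxes. The 3 lower genes thus share no 1 of these motifs, and a match is a description of letters, not a site of binding.

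Around the 10 genes, 8 lists of other microtubule genes held 135 genes, of which 124 were described. Of these, 9 were higher and 18 lower past the 2-fold limit, or 7.26% and 14.5%, against 9.8% and 11% of all described genes, and the median log2 change was 0.02. With at least 10 CPM required in 1 library, 9 were higher and 9 lower of 101, or 8.91% each, against 9.44% and 8.89% of the 10356 genes that pass this filter. A further 7 of the 124 had a plain CPM ratio past 2-fold that the added 1 CPM brought inside the limit. The counts of each list below stand beside the same 9.8% higher and 11% lower of all described genes.

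Other lattice-binding MAPs held 3 higher and 7 lower of 22 described, with a median log2 change of -0.30. These are 13.6% and 31.8%, against 9.8% and 11% of all described genes. The lower count depended on the setting, as did the share of all genes. It was 4 among the fewer genes of the list that reached 10 CPM, where 8.89% of all genes passing this filter were lower. It was 2 of 22 with 5 CPM added, against 5.93% of all described genes, and 3 of 22 with 1 added to FPKM, against 8.10%. In each of these settings 3 were higher, against 9.44%, 5.80% and 7.98% of all genes in the same order. MAP9, a spindle MAP also called ASAP, stood at 0.927 CPM in the refractory and 66.0 CPM in the untreated tumour, 71.2-fold lower (95% interval 54.6 to 94.7). DCLK2, a kinase with doublecortin domains, stood at 0.270 CPM in the refractory and 3.85 CPM in the untreated tumour. MTCL1, which crosslinks microtubules and is listed under its older symbol SOGA2, stood at 31.2 CPM in the refractory and 3.19 CPM in the untreated tumour, 9.79-fold higher (95% interval 8.56 to 11.2), and TPPP, which promotes tubulin polymerisation, at 24.0 and 4.55 CPM in the same order. Of the other stathmins, both described genes were lower past 2-fold. STMN3 stood at 1.94 CPM in the refractory and 4.90 CPM in the untreated tumour, and its log2 change of -1.01 lay just past the limit. STMN4 had 0 counts in the refractory and 151 in the untreated tumour, at least 39.1-fold lower at a floor of 3 counts in the refractory library. With 5 CPM added 0 of these stathmins were lower past 2-fold, and with 1 added to FPKM 1 was. Neither reached 10 CPM in either tumour.

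Other plus-end proteins held 4 higher and 5 lower of 26 described, with a median of -0.01. TACC3, which carries the polymerase CKAP5 to spindles and tips, stood at 89.6 CPM in the refractory and 33.8 CPM in the untreated tumour, and DST, a cytoskeletal linker, at 891 and 421 CPM in the same order. With 1 CPM added, the most changed of the lower ones were the neuron navigators NAV1 and NAV3. NAV1 stood at 18.4 CPM in the refractory and 108 CPM in the untreated tumour, and NAV3 at 0.303 and 6.36 CPM in the same order. By plain ratio SLAIN1 was lower still than NAV3 (21.0-fold). It had 0 counts in the refractory and 180 in the untreated tumour, at least 46.6-fold lower at a floor of 3 counts. Minus-end and nucleation factors held 1 higher and 1 lower of 17 (median 0.01): HAUS3, an augmin subunit, stood at 57.2 CPM in the refractory and 27.7 CPM in the untreated tumour, and CAMSAP2, a minus-end cap, at 94.7 and 198 CPM in the same order.

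The lists of spindle MAPs and severing enzymes held no gene past 2-fold with 1 CPM added, of 12 and 8 described, with medians of 0.07 and 0.06. Per length, NUSAP1, which bundles spindle microtubules, led the spindle MAPs in both tumours, at 90.5 FPKM in the refractory and 79.6 FPKM in the untreated one. KATNBL1, a regulator of the severing enzyme katanin, led the severing list in both, at 28.97 FPKM in the refractory and 24.5 FPKM in the untreated tumour. Kinases of MAPs and stathmin held 0 higher and 1 lower of 13 (median -0.04), CDK5R1, the p35 activator of CDK5, at 6.84 CPM in the refractory and 15.2 CPM in the untreated tumour. Tubulin cofactors and modifying enzymes held 1 higher and 2 lower of 24 (median 0.22). SIRT2, a tubulin deacetylase, stood at 21.7 CPM in the refractory and 9.42 CPM in the untreated tumour, and the tubulin carboxypeptidases VASH1 and VASH2 at 0.573 and 1.18 CPM in the refractory against 3.27 and 3.96 CPM in the untreated tumour.

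**Figure D5:**
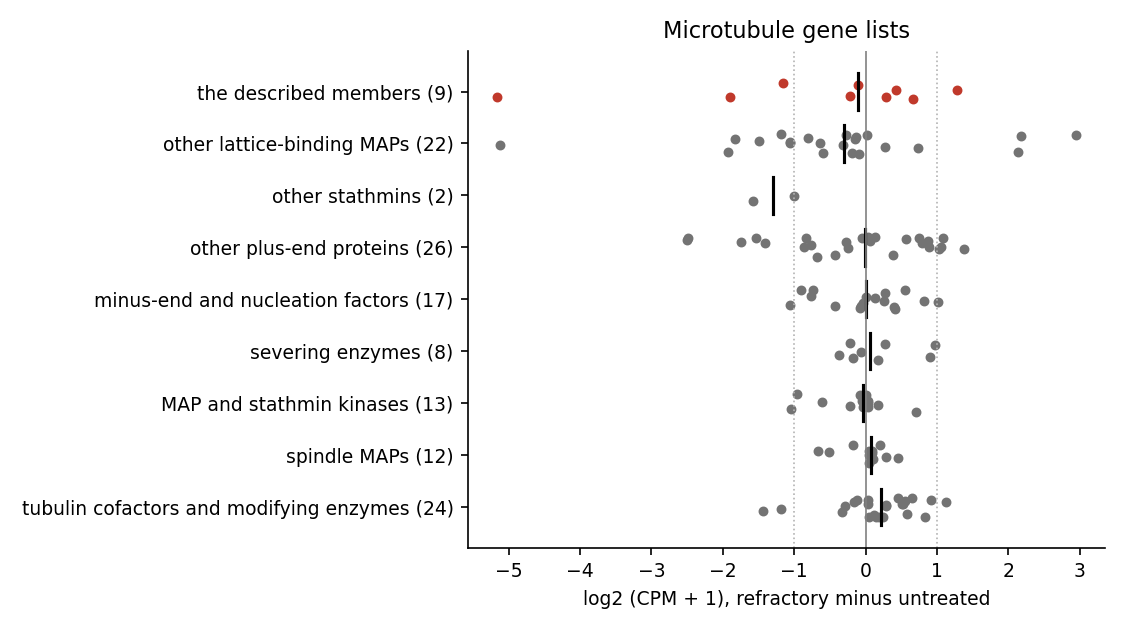
Log2 change (CPM plus 1, refractory minus untreated) of the 9 described genes of the set (red) and of the described genes of 8 other microtubule lists (grey), with the number described in brackets, black bars at the medians and dotted lines at 2-fold. Spindle MAPs and severing enzymes stay within 2-fold, and MAP1B in the set and MAP9 among the lattice-binding MAPs lie at -5.16 and -5.12.

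Since several of the lower genes are known from neurons, markers of other cell types were read in the same libraries. Fewer cells of a type and less RNA per cell cannot be told apart in bulk tumours. Of 9 neuron markers 1 was described, SYT1, a vesicle calcium sensor, at 66.2 CPM in the refractory and 2.09 CPM in the untreated tumour, and it made up most of the list's summed level of 67.0 and 2.94 CPM in the same order. Of the 9, 3 had 0 counts in the refractory and 1 in the untreated tumour. SNAP25 had 0 counts in the refractory and 1 in the untreated tumour, and ELAVL4 had 0 in both. Of 8 neuroendocrine markers 3 were described, and the summed level was 3.32 CPM in the refractory and 23.5 CPM in the untreated tumour. The adhesion molecule NCAM1, at 0.0674 CPM in the refractory and 12.9 CPM in the untreated tumour, and SCG5, at 0.624 and 8.95 CPM in the same order, were lower as MAP1B and MAP2 were. The third described one, SCG2, was not, at 1.67 CPM in the refractory and 1.203 CPM in the untreated tumour. Below 1 CPM, SYP had 45 counts in the refractory and 34 in the untreated tumour and INSM1 had 12 and 1 in the same order, and the defining markers CHGA and CHGB had 0 counts in both.

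Human genes that mark fibroblasts, endothelium and immune cells were mostly low. The hosts were mice, and how mouse reads were treated is not stated, so these values cannot measure host cells. Fibroblast markers summed to 2.33 CPM in the refractory and 3.62 CPM in the untreated tumour over 8 genes, with COL1A2, COL3A1, DCN and THY1 at 0 counts in both. Endothelial markers summed to 0.354 CPM in the refractory and 4.46 CPM in the untreated tumour over 6 genes, with CDH5 at 0 counts in both. Immune cell markers summed to 130.1 CPM in the refractory and 31.7 CPM in the untreated tumour over 6 genes. Nearly all of it was LYZ, lysozyme, at 95.9 CPM in the refractory and 27.2 CPM in the untreated tumour, and CD68, a lysosomal protein, at 29.2 and 3.62 CPM in the same order. The other 4 were low, with ITGAM at 3.32 CPM in the refractory and 0.419 CPM in the untreated tumour, CD14 at 1.43 and 0.445 CPM, the pan-leukocyte PTPRC at 0.287 and 0.0654 CPM, and CSF1R at 3 and 0 counts, all in the same order. The part of host cells in the results above was not tested.

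Overlapping annotation could touch these counts, and for overlapping genes absent from the deposited table this cannot be checked. GENCODE 29 lists 23 genes that overlap the 10 on either strand, of which 5 are in the deposited table, each with 0 counts in both tumours. It also lists 4 processed pseudogenes named after STMN1 or MAPRE1, and none of these 4 is in the table, so reads that match them as well could be placed with the parent gene. The sources used here do not state whether reads were counted by strand.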

How the data were processed

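RNA of 1 T-DM1-refractory and 1 untreated NCI-N87 xenograft tumour was sequenced from mRNA libraries, per the labels' protocols, and groups follow the treatment labels. The authors deposited 1 table with expected counts (estimated reads per gene, not always whole), FPKM per the file headers, a log2 fold change and a p-value per gene. For the 13007 genes above 50 reads in each tumour, the deposited log2 fold change differed by at most 0.00387 from a log2 ratio taken here from TMM-scaled counts, with refractory on top. The submitters' processing notes name STAR 2.7.0e, bcl2fastq 2.20, edgeR 3.26.8 and RSEM 1.2.28, with builds GRCh38 and GRCm38. For their roles, the annotation, filters and the mouse build, the sources used here give nothing. How mouse reads were treated could alter counts of conserved genes.

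Expected counts were rounded, and TMM factors (0.990 refractory, 1.01 untreated) came from edgeR 4.0.16 in R 4.3.3. CPM were computed on the scaled library sizes, log2 changes with 1 CPM added, and ratios with Clopper-Pearson 95% intervals on the split of the summed counts (scipy 1.17.1). Without molecular identifiers, reads may be copies of 1 molecule. The 3-count floor is 0.0506 CPM in the refractory and 0.0392 CPM in the untreated library. Genes of like abundance have a mean CPM within 2-fold. Coding starts in the table count from 0 and are printed from 1. Of the described genes, 88.4% were matched to RefSeq for neighbours. Scaling and folds were tested on simulated data, and the interval was checked by direct calculation for a fixed pair of counts. With 1 library per group no test was made.

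The 10 genes and all lists were chosen with earlier results of these data known. The rule for names outside the 10 took from each list, per direction, at most 2 genes that changed most beyond 2-fold, or its most abundant gene by FPKM if no gene did, and the markers that define a cell type. The use of FPKM there, MAPRE2, the proliferation and epithelial genes and the neighbours named were chosen after values were seen. Alternatives were 3 other scalings, pseudocounts of 0.1 and 5 CPM, no filter, a filter of 10 CPM, deposited FPKM, thresholds of 1.5-fold and 4-fold, unrounded counts and, added after the data were seen, subtraction of the neighbours' median.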

Additional observations from a re-analysis of the deposited data

How the results depend on the processing

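No paired analysis was possible because each group has 1 library. Under 7 other scalings, pseudocounts, units and roundings (a filter cannot alter a gene's own value), each of the 9 described genes kept its direction, and MAP1B (log2 -5.40 to -3.76), MAP2 (-1.92 to -1.78) and STMN1 (1.25 to 1.29) stayed past 2-fold, while MAP1S (-1.29 to -0.80) was within it with 5 CPM added and with 1 added to FPKM. At 1.5-fold 2 of the 10 genes were higher, the added one being MAP4. At 4-fold 0 were higher and 1 lower, MAP1B. With the neighbours' median subtracted 0 were higher and 2 lower, MAP1B and MAP2, and the median was -0.24. Of the 124 other microtubule genes, 14 were higher and 20 lower with 0.1 CPM added (11.3% and 16.1%, against 11.9% and 13.5% of all genes), 6 and 7 with 5 CPM added (4.84% and 5.65%, against 5.80% and 5.93%), and 6 and 9 with 1 added to FPKM (4.84% and 7.26%, against 7.98% and 8.10%). With at least 10 CPM required, 9 were higher and 9 lower of 101 (8.91% each, against 9.44% and 8.89%). At 1.5-fold, 21 were higher and 31 lower (16.9% and 25.0%, against 19.4% and 18.9%), and at 4-fold 3 and 3 (2.42% each, against 2.54% and 3.56%). No scaling moved the median of all genes by over 0.1. Depth limits MAPT and genes near the floor. With no replicates, variation between tumours was not measured.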
